A study of Rattus norvegicus with 87 samples.

Results

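Bdnf (ENSRNOG00000047466) and Ntrk2 (ENSRNOG00000018839), the gene of its receptor, were described in 81 rats of the Heterogeneous Stock (HS), in RNA from the lateral habenula (LHb). They were chosen by their identifiers, and are 2 of the 17512 genes measured. HS rats are an outbred population descended from inbred founder strains, so each rat carries its own genotype. No rat had been given a drug or a behavioral test, so there was no treated arm, and cages held several animals. The LHb was dissected by hand from frozen brain sections, tissue from both sides was pooled for each rat, and polyadenylated RNA was sequenced. The 41 males and 40 females came from 5 rat batches, numbered 2 to 6. Males and females numbered 11 and 4 (batch 2), 10 and 12 (batch 3), 12 and 15 (batch 4), and 8 and 8 (batch 6). A single female made up batch 5, which was described and left out of every fit, so that 80 rats entered the tests. Each rat is a separate animal.

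Bdnf encodes brain-derived neurotrophic factor, a secreted ligand that supports neuronal survival and adjusts the strength of synapses. Its transcription rises with neuronal activity. Ntrk2 encodes TrkB, the tyrosine kinase receptor for this ligand, which occurs in neurons in full length and, abundantly in astrocytes, in a truncated form without the kinase domain. The LHb, part of the epithalamus, sends its axons to midbrain regions that control dopamine and serotonin neurons and is known for its responses to aversive outcomes. Values here are 1 number per gene and rat. Transcripts of Bdnf from different promoters are thus not told apart, and neither are full-length and truncated Ntrk2. Which of these forms the annotation used for counting held was not checked. In bulk tissue, fewer cells of a type and less RNA per cell cannot be told apart.

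The RefSeq table for build GRCr8 listed 6 transcription starts for Bdnf, spread over 20225 bases of chromosome 3 on the plus strand. The 250 bases before the most upstream start, chr3:116619383-116619632, and those before the fourth start, chr3:116637608-116637857, are shown as examples of different starts. Counts were made against Ensembl transcripts (Rnor_6.0), and whether that annotation held these starts was not checked. Capitals mark CGTCA, the reverse complement of TGACG, the core of the cAMP response element (CRE) to which the activity-dependent factor CREB binds.
Bdnf start 1: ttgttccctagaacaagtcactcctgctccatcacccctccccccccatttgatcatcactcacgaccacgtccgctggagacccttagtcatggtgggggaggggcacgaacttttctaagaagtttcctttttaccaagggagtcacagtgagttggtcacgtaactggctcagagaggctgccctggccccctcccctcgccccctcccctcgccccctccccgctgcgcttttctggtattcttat
Bdnf start 4: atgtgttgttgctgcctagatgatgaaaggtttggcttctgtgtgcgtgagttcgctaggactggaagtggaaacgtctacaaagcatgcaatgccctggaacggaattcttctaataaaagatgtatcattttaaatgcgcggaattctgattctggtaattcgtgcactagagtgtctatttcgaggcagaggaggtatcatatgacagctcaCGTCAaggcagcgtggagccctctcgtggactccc
Windows 5 and 6 begin 56 bases apart and overlap, so the 6 windows are not all separate sequences. Of the 6 windows, 1 held TGACG on either strand, that of the fourth start, with 30 bases between the core and the start. Of all 33469 windows of 250 bases in the table, 18.2% held it. The full palindrome TGACGTCA, which contains the core, was in none of the 6 windows and in 1.59% of all windows. The E-box CACGTG, likewise a palindrome, was in none of the 6 and in 5.59% of all. The deposited values do not say which start a read came from, so no level was assigned to either sequence.

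A level is given as a scaled count, an estimated read count adjusted to a common upper quartile, or as log2 of that count plus 1. Counts were not divided by transcript length, so the 2 genes are not compared with each other in level. Bdnf ranged from 44 to 334 scaled counts over the 81 rats, with a median of 154. On the log2 scale its level was 7.27 ± 0.55 (SD, n = 81). The highest rat was thus 7.59-fold above the lowest. Ntrk2, at 6666 to 11398 scaled counts with a median of 8784, spanned 1.71-fold. Its log2 level was 13.09 ± 0.17 (SD, n = 81). The single female of batch 5 had 282 scaled counts of Bdnf, above all other females, and 11398 of Ntrk2, the highest of all rats.

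Totals of scaled counts lay between 16.2 and 20.2 M per rat (M, 1000000), and 296 to 1661 genes were at 0, with 9 rats over 1000. Sequencing depth before scaling could be recovered for 74 rats from the spacing of their low values and was 5.74 to 50.5 M. In these rats the Bdnf value rested on 41 to 428 reads (median 159), and Ntrk2 on 2419 to 20608 (median 9782). The SD that counting alone gives is 0.12 for Bdnf and 0.015 for Ntrk2 on the log2 scale, as a root mean square over these rats. This covers counting error only.

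**Figure D1:**
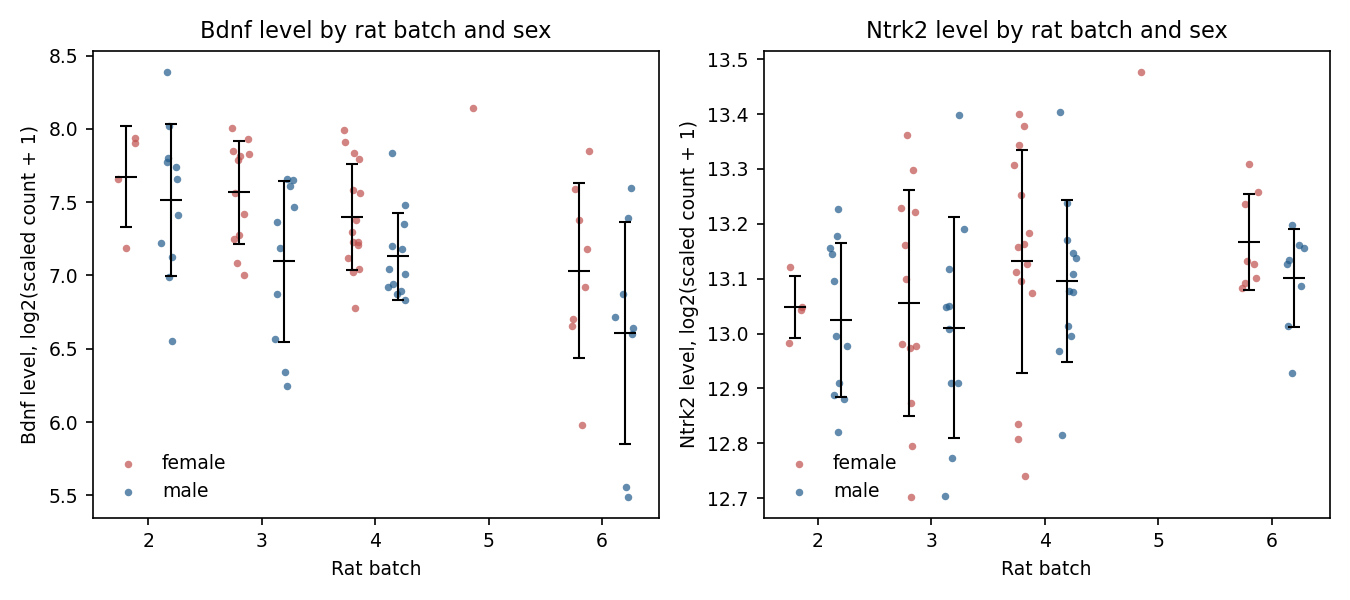
Level of Bdnf (left) and Ntrk2 (right) in each rat, log2(scaled count + 1), by rat batch and sex. Each point is 1 rat, and bars are the mean ± SD of each sex in a batch, with none for the single female of batch 5. Bdnf is lowest in batch 6, where 11 of 16 rats lie below the median of 154 scaled counts, and the sexes overlap in every batch that holds both.

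Females had more Bdnf than males on average, in each of the 4 batches that held both sexes, but the difference did not pass the test over all genes. Bdnf in females was 62 to 282 scaled counts with a median of 167.5, and 7.42 ± 0.46 on the log2 scale (SD, n = 40). In males it was 44 to 334 with a median of 144, and 7.12 ± 0.60 (SD, n = 41). The ranges overlapped almost fully. Of the 41 males 27 were below the female median, and of the 40 females 10 were below the male median.

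With batch as a covariate, the Bdnf difference of males minus females was -0.34 on the log2 scale (SE 0.11, 95% interval -0.55 to -0.13, 80 rats), or 0.789-fold. Its unadjusted p in limma was 0.00185, and its adjusted p was 0.401 after Benjamini-Hochberg adjustment over all genes. Of all genes, 0.131% (23 of 17512) passed an adjusted p of 0.05, and 882 had an unadjusted p under 0.05. Bdnf was therefore not among the genes called by sex.

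Within batches, the Bdnf difference of males minus females was -0.16 (SE 0.26) in batch 2, where there were 4 females. Those 4 females had 145, 201, 239 and 244 scaled counts, within the 93 to 334 of the 11 males. The difference was -0.47 (SE 0.18) for batch 3, -0.27 (SE 0.13) for batch 4 and -0.42 (SE 0.31) for batch 6. The estimate was thus below 0 in 4 of 4 batches, with intervals that included 0 in batches 2 and 6. In the table, rat identifiers ascend within 3 successive blocks, here named column runs 1 to 3, whose meaning the labels do not give. The order is broken by 1 pair of neighbors in run 2, a pair whose labels had been exchanged and which is in order by the original labels. Within the runs the Bdnf difference was -0.19 (SE 0.20), -0.59 (SE 0.22) and -0.33 (SE 0.14).

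Ntrk2 did not pass by sex, and its interval was narrow. It was 6666 to 11398 scaled counts in females (median 8923.5) and 6675 to 10834 in males (median 8638), ranges that overlapped almost wholly. The difference of males minus females was -0.043 on the log2 scale (SE 0.037, 95% interval -0.117 to 0.030, 80 rats), and its adjusted p in limma was 0.998. The interval corresponds to 0.922-fold to 1.02-fold. Within batches the Ntrk2 estimate lay between -0.067 (batch 6) and -0.024 (batch 2).

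**Figure D2:**
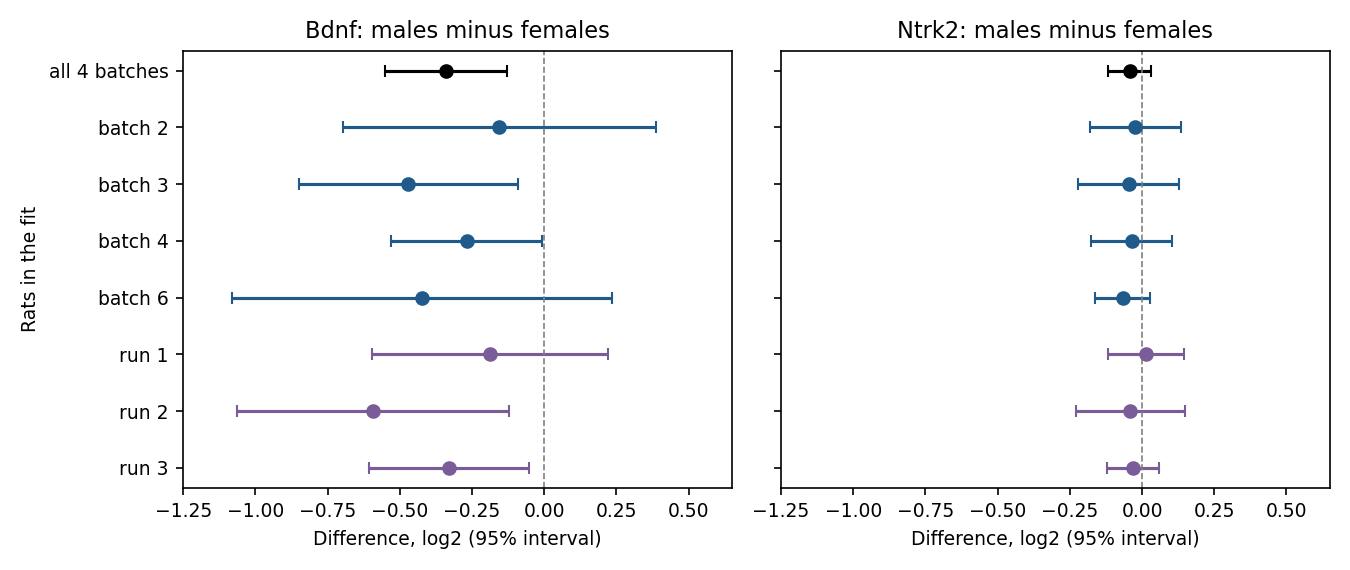
Difference of males minus females in Bdnf (left) and Ntrk2 (right), log2, with its 95% interval, in all 4 batches with batch as covariate (black), within each batch (blue) and within each column run (purple). Bdnf estimates are below 0 throughout, from -0.59 to -0.16, and Ntrk2 estimates lie near 0, with 0.013 in run 1.

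The RNA of the ligand relative to that of its receptor was also taken within each rat, as log2 of Bdnf plus 1 over Ntrk2 plus 1. No scaling between rats bears on this value. Males minus females it was -0.30 (SE 0.11, 80 rats). By construction the ratio differs between groups by the Bdnf difference less that of Ntrk2, so it is no separate result. The sex difference of Bdnf did not differ detectably between batches. The unadjusted p of the sex by batch interaction in limma was 0.765 for Bdnf and 0.987 for Ntrk2, and both adjusted p-values were 1.00. Of all genes, 0% (0 of 17512) passed this interaction test, and 306 had an unadjusted p under 0.05.

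Bdnf differed between rat batches, with batch 6 lowest and batch 2 highest, in a table where most genes did so. Batch 2 rats had 93 to 334 scaled counts of Bdnf (median 201), and 7.56 ± 0.47 on the log2 scale (SD, n = 15). Batch 3 rats had 75 to 256 (median 173), and 7.35 ± 0.50 (SD, n = 22). Batch 4 rats had 109 to 254 (median 147), and 7.28 ± 0.36 (SD, n = 27). Batch 6 stood lowest and widest, at 44 to 230 (median 110) and 6.82 ± 0.70 (SD, n = 16). The 2 lowest rats of the series, with 44 and 46 scaled counts, were both males of batch 6, while the highest rat, with 334, was a male of batch 2. All 4 ranges overlapped. The labels give a batch by its number alone, and what else its rats shared was not tested.

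With sex as a covariate, the batch means of Bdnf spanned 0.82 on the log2 scale, with an adjusted p of 0.00021 in the limma F-test. This test called 65.3% of all genes (11444 of 17512), so that a call by batch does not set Bdnf apart from most genes. Batch 6 minus batch 2 was -0.82 (SE 0.17, adjusted p in limma 5.24e-05), or 0.567-fold, in a contrast that called 42.4% of genes. Batch 6 minus batch 3 was -0.52 (SE 0.15, adjusted p 0.00245), where 59.2% of genes were called. Batch 4 minus batch 2 was -0.38 (SE 0.15, adjusted p 0.0461), where 33.9% were called. This last call was close to the threshold. Without the 9 rats over 1000 genes at 0 it was -0.37 (adjusted p in limma 0.0540), with genes at 0 as a covariate -0.38 (adjusted p 0.0510) and without batch 3 -0.36 (adjusted p 0.0604). With the column run as a covariate it was -0.66 (SE 0.35, adjusted p 0.175), in a fit where 3 rats of batch 3 alone link the 2 batches. Without batch 6 the span of the batch means fell to 0.37, with an adjusted p of 0.0444.

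The other contrasts of Bdnf did not pass. Batch 6 minus batch 4 was -0.44 (SE 0.15, adjusted p in limma 0.0535), in a contrast that called 6.04% of genes. Both batches stand in column run 3, and in these rats alone it was -0.44 (SE 0.15, adjusted p 0.0497), where 10% of genes were called. Its adjusted p was also under the threshold with the column run as a covariate (0.0363), without batch 3 (0.0426) and among genes with a mean log2 level of at least 5 (0.0431). Under 7 of 11 alternatives it stayed above the threshold. It was 0.106 with genes at 0 as a covariate and 0.111 without the 9 rats over 1000 genes at 0. With 20 expression components as covariates it was 0.917, and the estimate was -0.097. Batch 3 minus batch 2 was -0.30 (SE 0.16, adjusted p 0.228), where 7.44% were called. Within column run 1, which holds all of batch 2 and 7 rats of batch 3, the same difference was -0.04 (SE 0.21), where 0% of genes (0 of 17512) were called by limma and 1507 had an unadjusted p under 0.05. Batch 4 minus batch 3 was -0.077 (SE 0.13, adjusted p 0.646), where 54.9% were called.

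Taking out the first 20 principal components of expression turned most of these contrasts. Batch 6 minus batch 2 became 0.81 (SE 0.39) and batch 6 minus batch 3 became 0.75 (SE 0.37), with adjusted p-values in limma of 0.651 and 0.672. The SEs of these contrasts with sex alone were 0.17 and 0.15. The components were computed from the same values with the batches in them, and with them as covariates 20 genes in all were called by batch. Once column run was added as a covariate, all 6 contrasts kept their direction, and batch 6 minus batch 4 stayed at -0.44. Batch 6 minus batch 2 was -1.10 (SE 0.35, adjusted p in limma 0.0128) and batch 6 minus batch 3 was -0.99 (SE 0.28, adjusted p 0.00367). Batch 4 minus batch 3 was -0.55 (SE 0.27, adjusted p 0.127) and batch 3 minus batch 2 was -0.11 (SE 0.21, adjusted p 0.932). Relative to Ntrk2 within a rat, the batch means of Bdnf spanned 0.91 on the log2 scale.

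**Figure D3:**
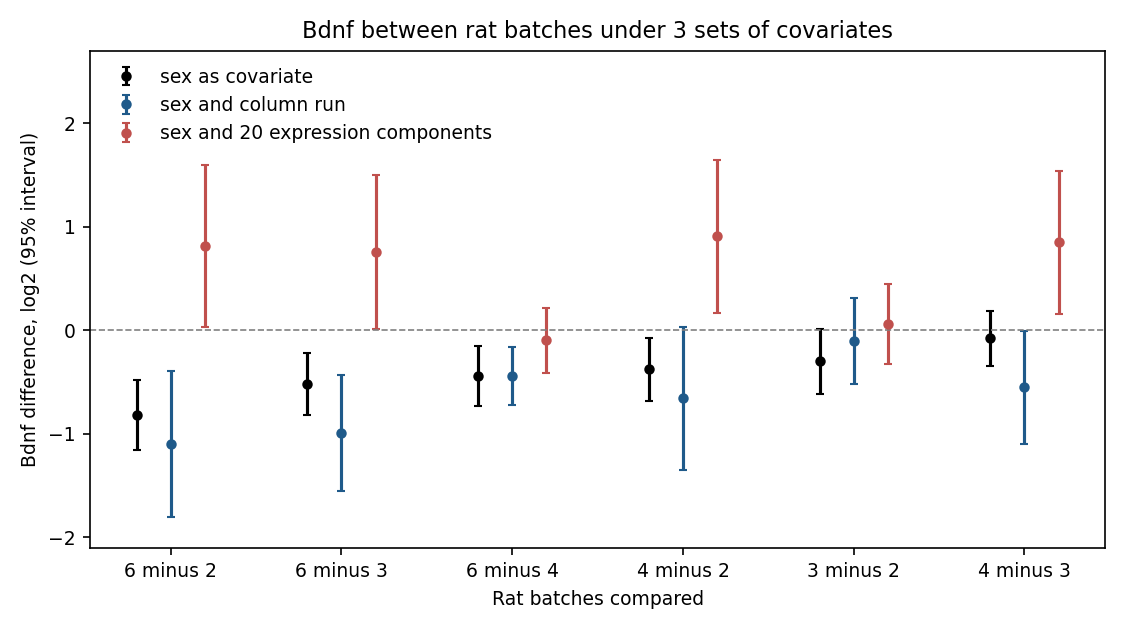
Difference in Bdnf between rat batches, log2, with its 95% interval, for the 6 pairs of batches and 3 sets of covariates. With sex alone (black) all 6 estimates are below 0, from -0.82 to -0.077. With the column run added (blue) they are also below 0, from -1.10 to -0.11, and with 20 expression components (red) all but batch 6 minus batch 4 are above 0. In the blue fit, 3 rats of batch 3 alone link batches 2 and 3 to batches 4 and 6.

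Ntrk2 did not pass between batches. Medians for batches 2, 3, 4 and 6 were 8439, 8351, 8945 and 8960 scaled counts. The adjusted batch means spanned 0.10 on the log2 scale, with an adjusted p in limma of 0.186, while 65.3% of genes were called. Batch 6 had 7790 to 10153 scaled counts, and the ranges of all 4 batches overlapped.

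Ntrk2 differed between the column runs within batch 3, the only batch found in more than 1 run. With sex and batch as covariates, the run means of Ntrk2 spanned 0.38, with an adjusted p in limma of 0.00219, in a test that called 36.4% of genes. The corresponding span of Bdnf was 0.70, and its adjusted p was 0.0596. With batch held, both spans rest on the 22 rats of batch 3. Over all rats in runs 1, 2 and 3, without covariates, the mean log2 level of Ntrk2 was 13.09, 12.97 and 13.11. Within batch 3, the 7 rats of run 1 had 8083 to 10788 scaled counts of Ntrk2 (median 9593) and the 12 of run 2 had 6675 to 9548 (median 8150.5). Run 2 minus run 1 was -0.26 (SE 0.073, adjusted p 0.0178, 19 rats), where 23% of genes were called. Without the 2 rats of run 2 that had over 1000 genes at 0 it was -0.24 (SE 0.073, adjusted p in limma 0.0251, 17 rats), where 22.9% of genes were called. The 3 batch 3 rats of run 3 had 6666, 7695 and 7696 scaled counts, all below the lowest of the 7 batch 3 rats of run 1. They had 1404, 1550 and 1578 genes at 0, and are 3 of the 9 rats over 1000, while the rats of run 1 within batch 3 had 376 to 642. These 3 rats alone link batch 3 to batches 4 and 6 once the run is a covariate, and in that fit Ntrk2 was called between batches, with a span of 0.48 and an adjusted p of 0.0068. The part of their genes at 0 in this call was not tested. Bdnf in run 2 minus run 1 within batch 3 was -0.39 (SE 0.18, adjusted p 0.115).

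Between rats, Bdnf was among the more variable genes and Ntrk2 among the less variable. After sex and batch were taken out, the residual SD of Bdnf was 0.47 on the log2 scale (SE 0.039, 80 rats), above 91.6% of the 13360 genes with a mean log2 level of at least 5 and above 70.4% of all genes. For Ntrk2 it was 0.16 (SE 0.013), above 24% of these 13360 genes and 18.3% of all. The median of the 13360 genes was 0.22. The counting SDs of 0.12 for Bdnf and 0.015 for Ntrk2 were smaller than these spreads. In mean log2 level, not divided by transcript length, Ntrk2 stood above 98.8% of all genes and Bdnf above 40.9%. Spread was not compared among genes of like level, so the part of level in these ranks was not tested.

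By estimate, the batch with the widest spread was not the same for Bdnf and Ntrk2. For Bdnf the spread was 0.48, 0.45, 0.34 and 0.68 in batches 2, 3, 4 and 6, and for Ntrk2 it was 0.13, 0.20, 0.18 and 0.088. Batch 6 was thus the widest for Bdnf and the narrowest for Ntrk2. Its median gene, at 0.16, was also the narrowest of the 4 batches, which had 0.20, 0.25 and 0.23 in batches 2 to 4. A permutation test of the spread over the 4 batches (100000 permutations of residuals over 80 rats, 2 tests) gave p = 0.0672 for Bdnf and p = 0.0286 for Ntrk2, or 0.0672 and 0.0573 after adjustment. Neither passed. The residual SD of Bdnf was 0.51 in males and 0.40 in females, a log2 ratio of 0.35 (permutation p = 0.114, two-sided), and that of Ntrk2 was 0.15 and 0.17, a log2 ratio of -0.22 (permutation p = 0.367).

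**Figure D4:**
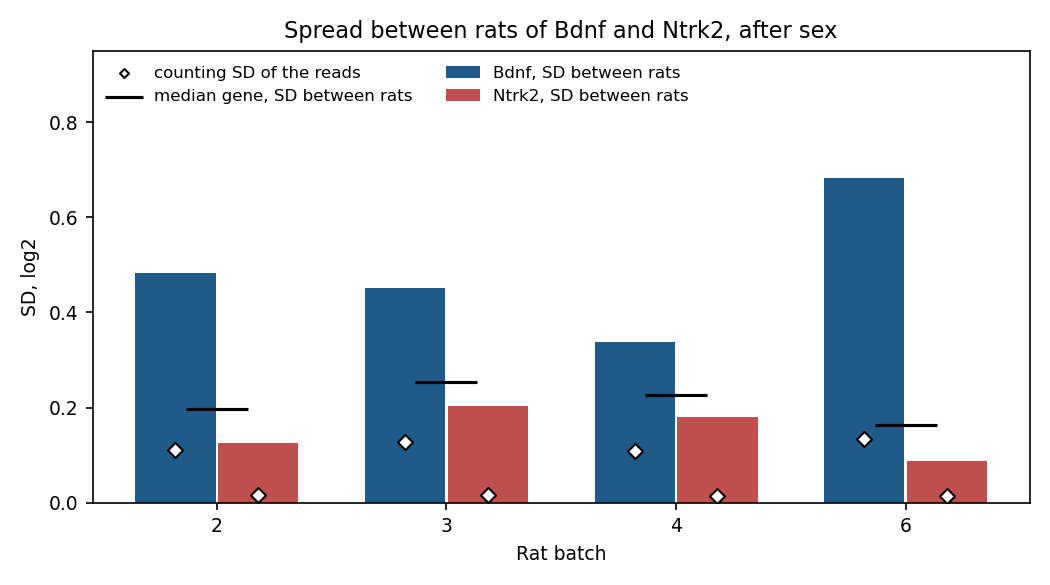
SD between rats of Bdnf (blue bars) and Ntrk2 (red bars) in each rat batch after sex, log2, with the counting SD of the reads as diamonds and the median of genes with a mean log2 level of at least 5 as black lines. Bdnf is above the median gene in all 4 batches, Ntrk2 is below it in all 4, and both are above their counting SD.

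The ligand and its receptor were not detectably related across rats. After sex and batch, Pearson's r between Bdnf and Ntrk2 was 0.113 (permutation p = 0.278, adjusted p = 0.487, 80 rats) and Spearman's rho 0.140 (permutation p = 0.217, adjusted p = 0.380). The p-values were two-sided, from 100000 permutations within batch, and adjusted over 7 relations. Without the 2 rats farthest from the median of Bdnf, r was 0.143. The direction was not shared by the batches. Batch 2 gave -0.320, batch 3 gave 0.256, batch 4 gave 0.334 and batch 6 gave -0.118, and the 3 column runs gave -0.313, 0.571 and 0.136. The lowest adjusted p over these 7 sets was 0.318.

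**Figure D5:**
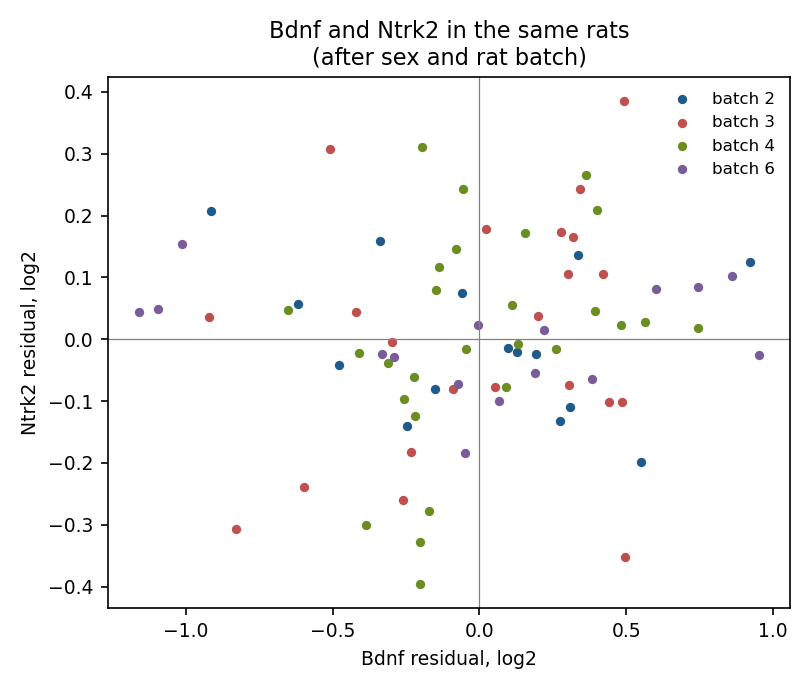
Residual of Ntrk2 against that of Bdnf in the same 80 rats, log2, after sex and rat batch were taken out. Each point is 1 rat, colored by batch, and r over all of them is 0.113. Batch 6 rats spread along the Bdnf axis and little along the Ntrk2 axis.

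Of the other 6 relations computed, those of Bdnf and of Ntrk2 with the number of genes at 0, the scaled total and the recovered depth, 1 passed. Rats with more genes at 0 had less Ntrk2, with r = -0.357 (permutation p = 0.00566, adjusted p = 0.0396, 80 rats) and rho = -0.398 (adjusted p = 0.00525). Without the 2 rats farthest from the median of Ntrk2, r was -0.338. Batches 2 and 3 gave r of -0.539 and -0.553, but batches 4 and 6 gave -0.156 and -0.0017, so that the pooled relation did not hold in every batch. With the column run as a covariate it was -0.169 (adjusted p = 0.358), and without batch 3 it was -0.158 (adjusted p = 0.539). Bdnf had r = 0.015 with the number of genes at 0, 0.048 with the scaled total and -0.090 with the log2 of recovered depth (74 rats with a recovered depth, 73 of them in the fits), and the corresponding values for Ntrk2 with total and depth were -0.224 (adjusted p = 0.230) and -0.188 (adjusted p = 0.389). These passed under 1 alternative each in the direction given. With genes at 0 as a covariate, r of Ntrk2 with depth was -0.348 (permutation, adjusted p = 0.0393), and without adjustment for sex and batch, r with the total was -0.332 (permutation, adjusted p = 0.00815).

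Fewer genes varied with Bdnf from rat to rat than with Ntrk2, unless expression components were taken out. Among 13298 genes with a mean log2 level of at least 5 and a row unlike any other, 48 had a residual r of at least 0.5 in size with Bdnf, 44 positive and 4 negative. For Ntrk2 these were 2660, of which 1205 were positive and 1455 negative. The median gene had 605, so that Bdnf had more such genes than 25.2% of these 13298 genes, and Ntrk2 more than 74.8%. These correlations share libraries, scaling and column runs, and are given as a description. Without the 9 rats over 1000 genes at 0 the numbers were 107 and 3631. With the 20 expression components taken out they were 47 and 10, against a median of 7. Bdnf then had more such genes than 87.1% of the 13298 genes, and Ntrk2 more than 56.4%. The components removed 75.4% of the variance of Ntrk2 left after sex and batch, and 31.5% of that of Bdnf. The column run removed 18.5% and 6.94%.

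The gene most like Bdnf over 80 rats was ENSRNOG00000009197, with r = 0.698, and the most opposite was ENSRNOG00000012742, with r = -0.521. For Ntrk2 they were ENSRNOG00000001285, with r = 0.813, and ENSRNOG00000038902, with r = -0.781. The deposited table does not pair these identifiers with symbols. With 20 components taken out, r was 0.563 and -0.423 for the pair of Bdnf, and 0.340 and -0.254 for the pair of Ntrk2.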

How the data were processed

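RNA-Seq of polyadenylated RNA from the LHb was used. The authors trimmed reads with cutadapt and estimated counts per gene with RSEM against Ensembl transcripts (Rnor_6.0). Per the labels and methods, the authors then brought libraries to a common upper quartile with DESeq2. They dropped samples for few reads, genotypes that did not match or outlying expression, leaving 81 of 87. Tool versions are not given in the sources used here. The deposited values are log2 of the adjusted estimated count plus 1, and all values up to 10000 were whole after this was undone (to 5 decimals), so the authors had rounded. Estimated counts divide reads between similar transcripts. The rows of Bdnf and Ntrk2 were unlike any other row.

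Rats were grouped by the sex and rat batch of the labels. limma 3.58.1 under R 4.3.3 (lmFit, eBayes with trend) was fitted to the log2 values of all 17512 genes, with Benjamini-Hochberg adjustment and a threshold of 0.05. In a simulation of the sex test with normal residuals, 76% of 200 changed genes among 17512 were recovered and 6.75% of calls were false. The changed genes were all shifted by the same amount, larger in size than the Bdnf difference of -0.34. Bdnf also had a residual SD of 0.47, against a median of 0.28 over all genes. The 76% is thus not the recovery of a gene like Bdnf. Depth was recovered from the spacing of low values, and on 81 simulated libraries 79 were resolved, 78 of them within 1%. The simulated scale factors did not reach those behind the lowest and highest recovered depths, 5.74 and 50.5 M. Relations were computed on residuals after sex and batch with 100000 permutations, using scipy 1.17.1, numpy 2.4.6, pandas 2.3.3 and, for plots, matplotlib 3.10.9 under Python 3.11.15. Genes most like each member were ranked by residual Pearson r among genes with a mean log2 level of at least 5 and a unique row, and the first on each side is named.

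Alternatives were another pseudocount (8), median-ratio scaling (size factors 0.980 to 1.03), covariates (column run, genes at 0, 20 expression components), a rank-based transformation, a mean log2 level of at least 5, and leaving out each batch. Those without the 9 rats over 1000 genes at 0, within batches and within runs, the test of the runs and the test of spread over batches were chosen after the data were seen. The members and lists were chosen with earlier results of these data known. The 213 genes of 19 marker and pathway lists had no symbol paired with an identifier in the tables used here, so cell type markers, the tissue label and the rest of the neurotrophin pathway were not analysed here. Sequences were read from RefSeq for GRCr8, where 1 of the 2 members matched.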

Additional observations from a re-analysis of the deposited data

How the results depend on the processing

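No paired analysis was possible because a replicate number stands for 1 rat and links no rats of different groups. Of 303 recomputed values, 48 differed. Values with a test counted as different where they changed direction or side of the threshold, whatever their size. Spreads and correlations with single genes, which had no test, did so where they moved by more than their SE, and counts of genes where they moved by over 1.5 times. The Bdnf sex difference was below 0 under all 19 alternatives, with adjusted p-values in limma of 0.304 to 1.00, and was closest to 0, at -0.099, with 20 components. The SE of this Bdnf estimate with 20 components was 0.46, against 0.11 without them. Its interval, -1.02 to 0.83, is too wide to give a direction or a smaller difference. The Ntrk2 sex difference was 0.013 within run 1. Neither gene passed the interaction test under any of 12 alternatives. The Bdnf batch difference passed under 11 of 12 alternatives, and with 20 components its span was 0.91 without passing (adjusted p 0.499). That of Ntrk2 was 0.48 and passed with the column run. With 20 components, the Bdnf contrasts became 0.81 (6 minus 2, SE 0.39), 0.75 (6 minus 3, SE 0.37), 0.91 (4 minus 2, SE 0.37), 0.059 (3 minus 2, SE 0.19) and 0.85 (4 minus 3, SE 0.34). With the same components, the Bdnf log2 ratio of SDs by sex became -0.17, and r of Bdnf with Ntrk2 -3.74e-06 and with genes at 0 -0.0103. Ntrk2 with the scaled total became 0.324 (adjusted p 0.00875). Bdnf with genes at 0 was -0.0501 with the column run, -0.0756 without batch 3 and -0.0428 without the 9 rats, Bdnf with the scaled total -0.0385 without batch 2, and Bdnf with depth 0.0072 without batch 3. Ntrk2 with genes at 0 was no longer past the threshold with the column run (-0.169), with 20 components (-0.0603), without batch 2 (-0.358), without batch 3 (-0.158) and without the 9 rats (-0.340). The residual SD of Bdnf was 0.39 with 20 components, 0.53 without batch 4 and 0.41 without batch 6. That of Ntrk2 was 0.15 with the column run, 0.080 with 20 components, 0.15 without batch 3 and 0.18 without batch 6. Genes called by sex numbered 23, and 7 with 20 components, and genes called by batch 11444, against 6180 with the column run and 20 with 20 components. The cause was not tested. The alternatives for marker and pathway lists were not run, since no list gene was matched. With 41 reads of Bdnf at the least, counting limits single rats to a log2 SD of 0.23.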
